A study of Homo sapiens with 16 samples.

Results

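The NRF2 antioxidant response genes described here are 10 genes chosen by name for their place in 1 pathway. NFE2L2 encodes the transcription factor NRF2 and KEAP1 its inhibitor, and NQO1, HMOX1, GCLC, GCLM, SLC7A11, TXNRD1, SRXN1 and GPX4 encode enzymes and a transporter that defend the cell against oxidants. All 10 were found among the 60642 gene symbols of the deposited table. All 10 also reached 1 TPM in 2 or more libraries, which 16636 symbols did. TPM (a level per length of transcript, scaled within each library) was estimated by the authors for each gene symbol. The column totals ran from 976190 to 983114. That scaling sets the totals, so their closeness does not show that libraries are alike in make-up. Mitochondrial genes, for example, held 22.3% of the total in DHT replicate 1 and 14.7% in DHT replicate 2. A level is thus a share of its own library.

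RNA was sequenced from LNCaP cells, an established prostate cancer line that responds to androgen, and every value comes from this 1 line. All cells grew for 72 h in 5% fetal bovine serum and then for 48 h in 5% charcoal-stripped serum, which is poor in steroids. They were then treated for 48 h, in 8 groups with 2 libraries each that the labels call biological replicates 1 and 2. VEH cells received the solvents ethanol and DMSO. DHT cells received 10 nM dihydrotestosterone, the androgen, with DMSO. BIC.VEH, ENZ.VEH and APA.VEH cells received ethanol with 10 µM of bicalutamide, enzalutamide or apalutamide (ARN in the sample labels), which are antagonists of the androgen receptor. BIC.DHT, ENZ.DHT and APA.DHT cells received the same antagonists at that dose together with 10 nM DHT. The comparisons ask how androgen moved these genes, how far each antagonist changed that in the presence of DHT, and what the antagonists did alone.

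NRF2 is held at a low level in unstressed cells because KEAP1 marks it for destruction. Oxidants and electrophiles modify KEAP1, and NRF2 then accumulates, enters the nucleus and binds, with a small MAF protein, to antioxidant response elements near its target genes. Its targets include quinone and heme enzymes, the enzymes and the transporter that supply glutathione, and the thioredoxin system. NRF2 activity is set mainly by protein stability, which RNA levels of NFE2L2 and KEAP1 do not measure. In prostate epithelium this pathway is known for its part in coping with reactive oxygen and with drugs.

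The labelled cell type was checked against its markers. The 8 luminal and androgen-response markers of LNCaP summed to between 2417 and 7600 TPM. Markers of basal prostate cells summed to at most 1.92 TPM and of leukocytes to at most 0.63 TPM. The stroma markers summed to between 18.1 and 38.2 TPM, with COL1A1 the largest part at 11.4 to 32.6 TPM. Of this list COL1A1, COL3A1 (up to 4.21 TPM) and ACTA2 (up to 9.96 TPM) were detected, and DCN, a fibroblast gene, did not pass 0.07 TPM. COL1A1 stood at 32.6 and 25.9 TPM in VEH and at 11.4 and 15.6 TPM with DHT, ACTA2 at 3.01 and 3.46 TPM and at 5.70 and 9.96 TPM, and their part in the androgen results was not tested. The 10 markers of dividing cells summed to between 77.3 and 391 TPM in replicate 1 libraries (median 126) and to between 305 and 788 TPM in replicate 2 libraries (median 355). Mitochondrial genes held 14.7% to 22.3% of the total, and Pearson's r of log2(TPM + 1) across genes between replicates was 0.964 to 0.982. Read depth cannot be recovered from TPM, so precision was judged from the spread between replicates.

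The element that NRF2 binds is printed here because it defines the pathway. Its core was searched as TGACNNNGC on both strands, in windows from 250 bases before to 50 bases after annotated transcript starts (RefSeq, GRCh38.p14). The core was found in 13.3% of all 35116 windows of that length and in 4 of the 13 windows of members. Elements more than 250 bases upstream were not searched, so a gene without a match may hold one there. Of the 10 members, 8 had a window (all but HMOX1 and SLC7A11), and 3 of these 8 held the core: GCLM, TXNRD1 and KEAP1. The related motif TGACTCA, bound by AP-1, was found in 4.95% of all windows and in 8.36% of those with the core, and in 0 of the 13 windows of members. These 3 genes held 6 matches, and 1 for each start is shown. A match of these letters is a description and not a shown binding site, and which start LNCaP cells use was not tested. Capitals mark the core, read on the strand of the gene. Coordinates are in GRCh38.p14 and span the whole printed stretch, while positions are those of the core. Position 0 is the first transcribed base. The GCLM match lies at positions -34 to -26 (chr1:93909431-93909504, minus strand), a TXNRD1 match at -99 to -91 of the first start (chr12:104215640-104215728, plus strand), a further TXNRD1 match at -102 to -94 of a start inside the gene (chr12:104286920-104286948) and a KEAP1 match at -31 to -23 of a start inside the gene (chr19:10502784-10502812, minus strand). The matches not shown are TGACGGAGC at -8 to 0 of the first TXNRD1 start and TGACACGGC at -54 to -46 of the same KEAP1 start.
GCLM: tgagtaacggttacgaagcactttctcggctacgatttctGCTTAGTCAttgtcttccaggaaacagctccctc
TXNRD1, first start: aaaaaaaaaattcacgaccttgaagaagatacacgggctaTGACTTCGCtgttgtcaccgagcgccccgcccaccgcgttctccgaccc
TXNRD1, inner start: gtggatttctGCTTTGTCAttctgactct
KEAP1, inner start: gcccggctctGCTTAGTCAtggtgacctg
GCLM and KEAP1 hold the same 9 letters, which read TGACTAAGC on the other strand, and the inner TXNRD1 start holds TGACAAAGC.

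Single members differed with androgen in opposite directions. With DHT, TXNRD1 was 1.69-fold higher than in VEH by the group means, GCLC was 1.92-fold lower and NQO1 1.28-fold lower. With an antagonist added to DHT, the group means of these genes stood on the VEH side of their DHT level for all 3 antagonists. None of these differences was called in the model of group means. With the replicate number as a term they were called, except those of GCLC and TXNRD1 in BIC.DHT, which were called under neither model. Fold changes are on the log2(TPM + 1) scale, from limma fitted to all 16 libraries. Each SE thus pools the spread within all 8 groups, including groups outside the comparison. Called genes are those with an adjusted p (Benjamini-Hochberg, over all genes of a comparison) under 0.05. In the model of the 8 group means alone, 0 of 10 members were called in DHT against VEH (2 at an unadjusted p below 0.05) and in BIC.DHT, ENZ.DHT and APA.DHT against DHT (1 each). The background of calls over all tested genes in these comparisons was 10.3%, 3.13%, 9.65% and 8.36%. With replicate number as a block, 3, 1, 4 and 3 members were called, and the background rose to 27.4%, 13.3%, 29.2% and 27.3%. Set against this background, the members' counts of 10 were not far from those of genes at large, and 4 of 10 in ENZ.DHT lay furthest above it. The median log2 fold change of the 10 members was 0.00 in DHT against VEH, where that of all genes was -0.10. It was 0.09, -0.01 and -0.07 in the antagonist comparisons, beside 0.00, -0.01 and 0.00 for all genes. With median-ratio scaling the all-gene median of DHT against VEH moved to 0 and that of the members to 0.12. Over all genes, DHT against VEH called 604 higher and 1105 lower, and 996 higher and 892 lower with median-ratio scaling. The 4 comparisons share the DHT libraries. Groups did not overlap for 7 members in DHT against VEH (56.5% of all genes) and for 7, 8 and 7 members in the antagonist comparisons (47%, 50.9% and 47.9% of all genes). In bulk RNA, fewer cells of a state and less RNA per cell cannot be told apart. The dividing-cell markers also moved with DHT, at 128 and 352 TPM in VEH, 391 and 788 TPM with DHT and 99.65 to 520.4 TPM with DHT and an antagonist, and their part in these results was not tested.

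**Figure D1:**
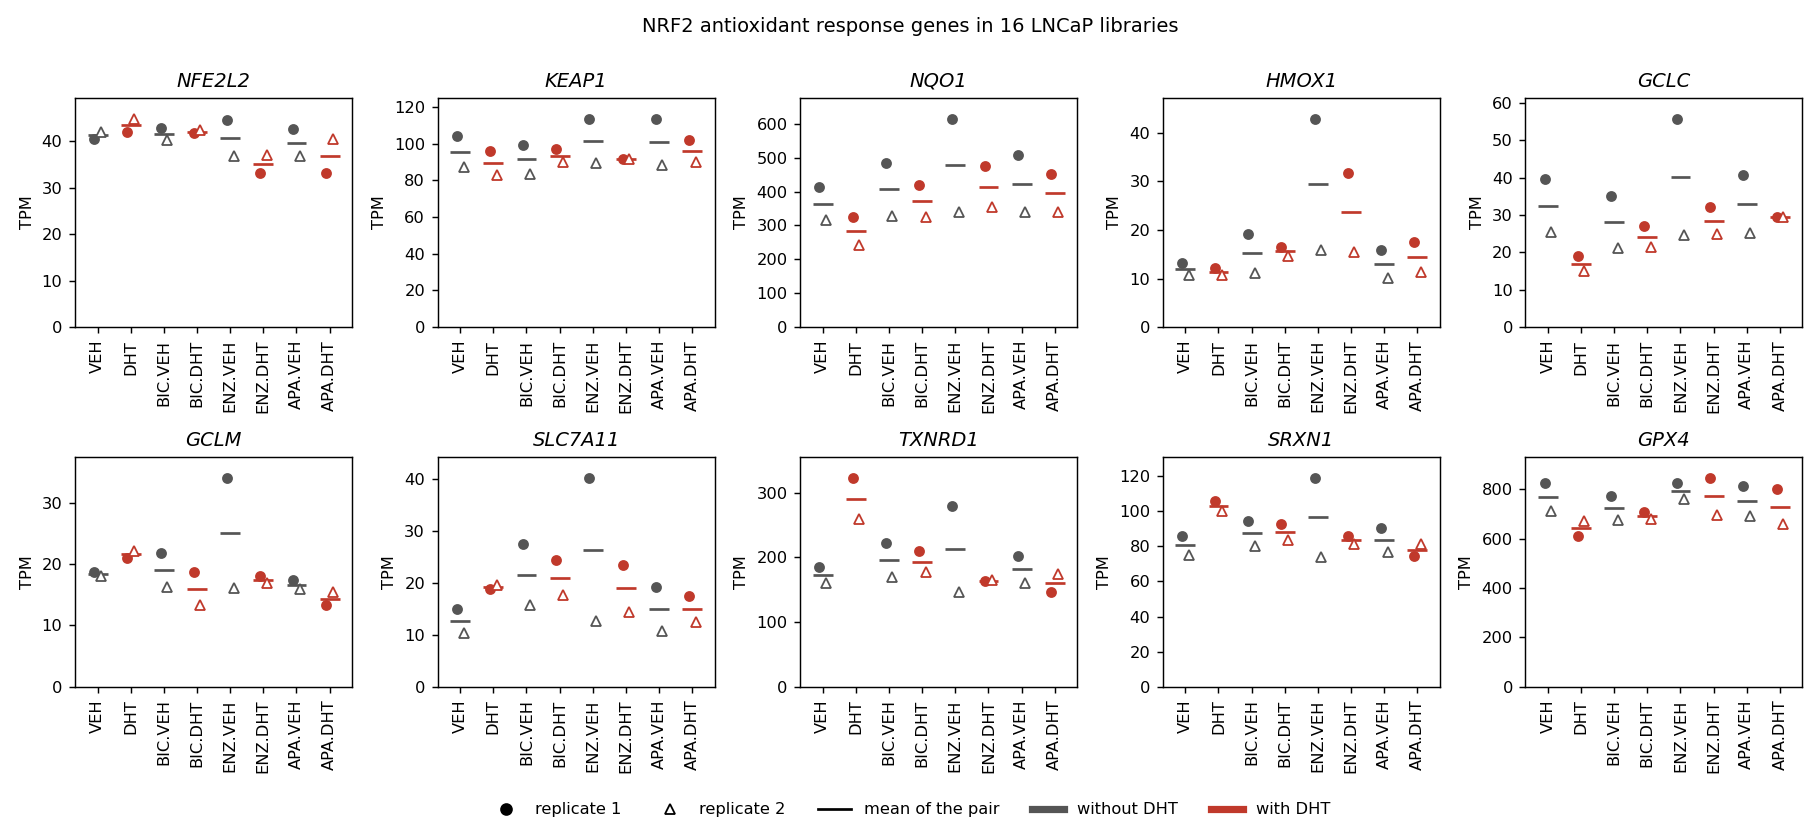
TPM (linear axis from 0) of each of the 10 NRF2 genes in the 8 groups, with replicate 1 as filled circles, replicate 2 as open triangles and the mean of the pair as a line. TXNRD1 is highest in the DHT libraries (323 and 259 TPM), GCLC is lowest there (18.9 and 15.0 TPM), and replicate 1 of ENZ.VEH stands above all other libraries for 7 genes.

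The regulators had the narrowest ranges over the libraries, with that of GPX4 (1.38-fold) close to them. NFE2L2 (chromosome 2, 177230303 to 177264727 in GRCh38.p14, holding the microRNA gene MIR3128) ran from 33.2 to 44.9 TPM over all 16 libraries, a 1.35-fold range. Its 2 lowest libraries were replicates 1 of ENZ.DHT and APA.DHT, at 33.2 TPM each. These 2 libraries also had the lowest factors in median-ratio scaling, 0.913 and 0.912, and the part of this was not tested. NFE2L2 stood at 42.1 and 44.9 TPM with DHT and at 33.2 and 37.1 TPM in ENZ.DHT, without overlap. The log2 fold change of NFE2L2 in ENZ.DHT against DHT was -0.30 (SE 0.14, limma adjusted p 0.19), and with the replicate block the adjusted p was 0.099. KEAP1, the adaptor that presents NRF2 for degradation (chromosome 19, 10486125 to 10503356), ran from 82.8 to 114 TPM, a 1.37-fold range. Its log2 fold changes against DHT were between 0.04 and 0.10 for the 3 antagonists, and the KEAP1 libraries of each antagonist group overlapped with those of DHT. Neither regulator was called for any treatment.

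NQO1 reduces quinones with both electrons at once, which avoids reactive semiquinones (chromosome 16, 69709401 to 69726560, overlapping NQO1-AS1). Its median over the libraries, 347 TPM, was second among the 10 genes to that of GPX4, 711 TPM. NQO1 stood at 412 and 315 TPM in VEH and at 325 and 242 TPM with DHT, listed as replicates 1 and 2. Lower values with DHT were seen within both replicate numbers, while the groups overlapped. NQO1 was at 420 and 325 TPM in BIC.DHT, at 476 and 353 TPM in ENZ.DHT and at 452 and 341 TPM in APA.DHT. All of these libraries lay above the DHT library of the same number. Without DHT it stood at 486 and 328 TPM in BIC.VEH, at 616 and 339.5 TPM in ENZ.VEH and at 507 and 340.2 TPM in APA.VEH. The log2 fold change of NQO1 with DHT was -0.36 (SE 0.33, limma adjusted p 0.53), and with the replicate block it was called (SE 0.11, adjusted p 0.035). That call was lost whichever of the 4 libraries was left out (adjusted p 0.078 to 0.20), and the fold change was -0.24 under median-ratio scaling. Against DHT, NQO1 differed by 0.40 in BIC.DHT, 0.55 in ENZ.DHT and 0.48 in APA.DHT (SE 0.33 each, adjusted p 0.65, 0.31 and 0.38). With the block all of these NQO1 differences were called (adjusted p 0.041, 0.0047 and 0.0095). In ENZ.DHT the call held whichever library was left out (adjusted p 0.019 to 0.041). It was lost in BIC.DHT whichever library was left out (adjusted p 0.10 to 0.27) and in APA.DHT without DHT replicate 1 (adjusted p 0.069).

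HMOX1 is the inducible heme oxygenase, which opens heme to biliverdin, carbon monoxide and iron (chromosome 22, 35381096 to 35394207). It had the widest range of the 10 genes, from 10.0 TPM in APA.VEH replicate 2 to 42.9 TPM in ENZ.VEH replicate 1, or 4.28-fold. HMOX1 stood at 13.2 and 10.8 TPM in VEH and at 12.1 and 10.7 TPM with DHT, which overlap. HMOX1 was at 31.7 and 15.5 TPM in ENZ.DHT, at 16.5 and 14.6 TPM in BIC.DHT and at 17.5 and 11.3 TPM in APA.DHT. All libraries of ENZ.DHT and BIC.DHT lay above those of DHT, and APA.DHT overlapped with DHT. Without DHT, HMOX1 stood at 42.9 and 15.9 TPM in ENZ.VEH, at 19.2 and 11.2 TPM in BIC.VEH and at 15.9 and 10.0 TPM in APA.VEH. The ENZ.VEH and ENZ.DHT means, 29.4 and 23.6 TPM, were the highest of the 8 groups for HMOX1, and within each replicate number these libraries were the 2 highest. In replicate 2 the next library, BIC.DHT, stood at 14.6 TPM, so the gap was wide in replicate 1 and narrow in replicate 2. The log2 fold change of HMOX1 in ENZ.DHT against DHT was 0.91 (SE 0.45, limma adjusted p 0.22), and the replicate block called it (SE 0.26, adjusted p 0.022). With the block the call was lost without DHT replicate 1 (adjusted p 0.18) or ENZ.DHT replicate 1 (adjusted p 0.16). Within replicate 1 the HMOX1 difference was 1.32 and within replicate 2 it was 0.50.

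GCLC is the catalytic subunit of glutamate-cysteine ligase, which runs the rate-limiting step of glutathione synthesis (chromosome 6, 53497341 to 53545101, overlapping GCLC-AS1). GCLC stood at 39.7 and 25.4 TPM in VEH and at 18.9 and 15.0 TPM with DHT. These groups did not overlap, and the DHT libraries were the 2 lowest of all 16. GCLC was at 27.0 and 21.4 TPM in BIC.DHT, at 32.2 and 24.9 TPM in ENZ.DHT and at 29.6 and 29.5 TPM in APA.DHT, all above both DHT libraries. Without DHT it stood at 35.1 and 21.1 TPM in BIC.VEH, at 55.8 and 24.7 TPM in ENZ.VEH and at 40.8 and 25.2 TPM in APA.VEH. The log2 fold change of GCLC with DHT was -0.87 (SE 0.38, limma adjusted p 0.18), and GCLC fell with the replicate block (SE 0.21, adjusted p 0.011). That call was lost without DHT replicate 1 (adjusted p 0.088) or VEH replicate 1 (adjusted p 0.079) and held without either replicate 2 (adjusted p 0.034 and 0.048). Against DHT, GCLC differed by 0.49 in BIC.DHT, 0.71 in ENZ.DHT and 0.77 in APA.DHT (SE 0.38 each, adjusted p 0.62, 0.26 and 0.23). The block called the ENZ.DHT and APA.DHT differences (adjusted p 0.028 and 0.021) and not that of BIC.DHT (adjusted p 0.16). In ENZ.DHT the GCLC call was lost whichever library was left out (adjusted p 0.060 to 0.17). In APA.DHT it held only without APA.DHT replicate 1, at 1.07 (adjusted p 0.0099), and the value was 0.48 without APA.DHT replicate 2 (adjusted p 0.14).

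GCLM is the modifier subunit that makes the ligase more efficient, and the group means of GCLC and GCLM were not ordered alike. GCLM (chromosome 1, 93885199 to 93909430), whose promoter window holds the core, stood at 18.7 and 18.0 TPM in VEH and at 21.0 and 22.1 TPM with DHT. GCLM was therefore higher in both DHT libraries, where GCLC was lower. The log2 fold change of GCLM with DHT was 0.22 (SE 0.28, limma adjusted p 0.67) and was not called with the block either (adjusted p 0.52). That SE pools all 8 groups, and the widest GCLM pair was that of ENZ.VEH (33.97 and 16.11 TPM), outside this comparison. GCLM was at 18.7 and 13.25 TPM in BIC.DHT, at 18.0 and 16.9 TPM in ENZ.DHT and at 13.3 and 15.4 TPM in APA.DHT. All of these lay below both DHT libraries. The GCLM difference in APA.DHT against DHT, -0.56 (SE 0.28), missed the threshold (limma adjusted p 0.24, and 0.10 with the block). Whether the fold changes of GCLC and GCLM differ from each other was not tested.

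SLC7A11 is the cystine importer of the xCT exchanger, which brings in the cystine used for glutathione (chromosome 4, 138164097 to 138242349, overlapping SLC7A11-AS1). It ranged 3.87-fold, from 10.4 TPM in VEH replicate 2 to 40.2 TPM in ENZ.VEH replicate 1. SLC7A11 stood at 15.0 and 10.4 TPM in VEH and at 18.8 and 19.5 TPM with DHT, without overlap. The log2 fold change of SLC7A11 with DHT was 0.58 (SE 0.48, limma adjusted p 0.49) and was not called with the block. SLC7A11 was at 27.4 and 15.7 TPM in BIC.VEH and at 24.4 and 17.6 TPM in BIC.DHT. These levels were close with and without DHT, at a log2 difference of 0.00 and a 95% interval of -1.05 to 1.05.

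TXNRD1, the cytosolic thioredoxin reductase, passes electrons from NADPH to thioredoxin (chromosome 12, 104215779 to 104350307, overlapping TXNRD1-AS1, RPL18AP3 and EID3). In the model of group means it held the lowest p of the members in all 4 comparisons that involve DHT alone. TXNRD1 stood at 184 and 160.3 TPM in VEH and at 323 and 259 TPM with DHT. The DHT groups and VEH groups did not overlap, and DHT replicate 1 was the highest of all libraries. TXNRD1 was at 209.6 and 177 TPM in BIC.DHT, at 163 and 166 TPM in ENZ.DHT and at 146 and 174 TPM in APA.DHT. All 6 of these libraries lay below both DHT libraries, and each of the 3 groups overlapped with VEH. Without DHT it stood at 222 and 170.0 TPM in BIC.VEH, at 279 and 147 TPM in ENZ.VEH and at 203 and 161 TPM in APA.VEH. The log2 fold change of TXNRD1 with DHT was 0.75 (SE 0.26, limma adjusted p 0.10), and TXNRD1 rose with the replicate block (SE 0.21, adjusted p 0.021). With the block that call was lost whichever library was left out (adjusted p 0.078 to 0.11). Against DHT, TXNRD1 differed by -0.58 in BIC.DHT, -0.81 in ENZ.DHT and -0.86 in APA.DHT (SE 0.26 each, adjusted p 0.32, 0.078 and 0.069). The block called ENZ.DHT (adjusted p 0.014) and APA.DHT (adjusted p 0.011), and BIC.DHT missed the threshold (adjusted p 0.089). The ENZ.DHT call held only without ENZ.DHT replicate 2 (adjusted p 0.017, otherwise 0.057 to 0.11). The APA.DHT call held only without APA.DHT replicate 2 (adjusted p 0.0049), and without APA.DHT replicate 1 the value was -0.56 (adjusted p 0.10).

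SRXN1, sulfiredoxin, repairs peroxiredoxins that were over-oxidised (chromosome 20, 646615 to 653200, overlapping LOC107985423). It stood at 85.7 and 75.3 TPM in VEH and at 106 and 100.1 TPM with DHT, without overlap. SRXN1 was lower than in DHT in all 6 libraries with DHT and an antagonist, between 74.3 and 92.6 TPM. Its log2 fold changes were 0.35 with DHT and -0.22, -0.30 and -0.40 for BIC.DHT, ENZ.DHT and APA.DHT against DHT (SE 0.19 each), and none was called under either model (with the block, adjusted p 0.065 in APA.DHT). Without APA.DHT replicate 2 the block called SRXN1 in APA.DHT, at -0.58 (adjusted p 0.027). GPX4, which reduces lipid peroxides and guards against ferroptosis (chromosome 19, 1103994 to 1106779), was the most abundant member, from 612 to 846 TPM. GPX4 stood at 827 and 713 TPM in VEH and at 612 and 674 TPM with DHT, and its difference, -0.26 (SE 0.15), missed the threshold (limma adjusted p 0.32). With the block GPX4 was not called in DHT against VEH, ENZ.DHT or APA.DHT (limma adjusted p 0.082, 0.078 and 0.22). The block called it there only without DHT replicate 2, at -0.42, 0.42 and 0.34 in that order. Within replicate 1 these differences were -0.43, 0.47 and 0.39, and within replicate 2 they were -0.08, 0.05 and -0.03.

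**Figure D2:**
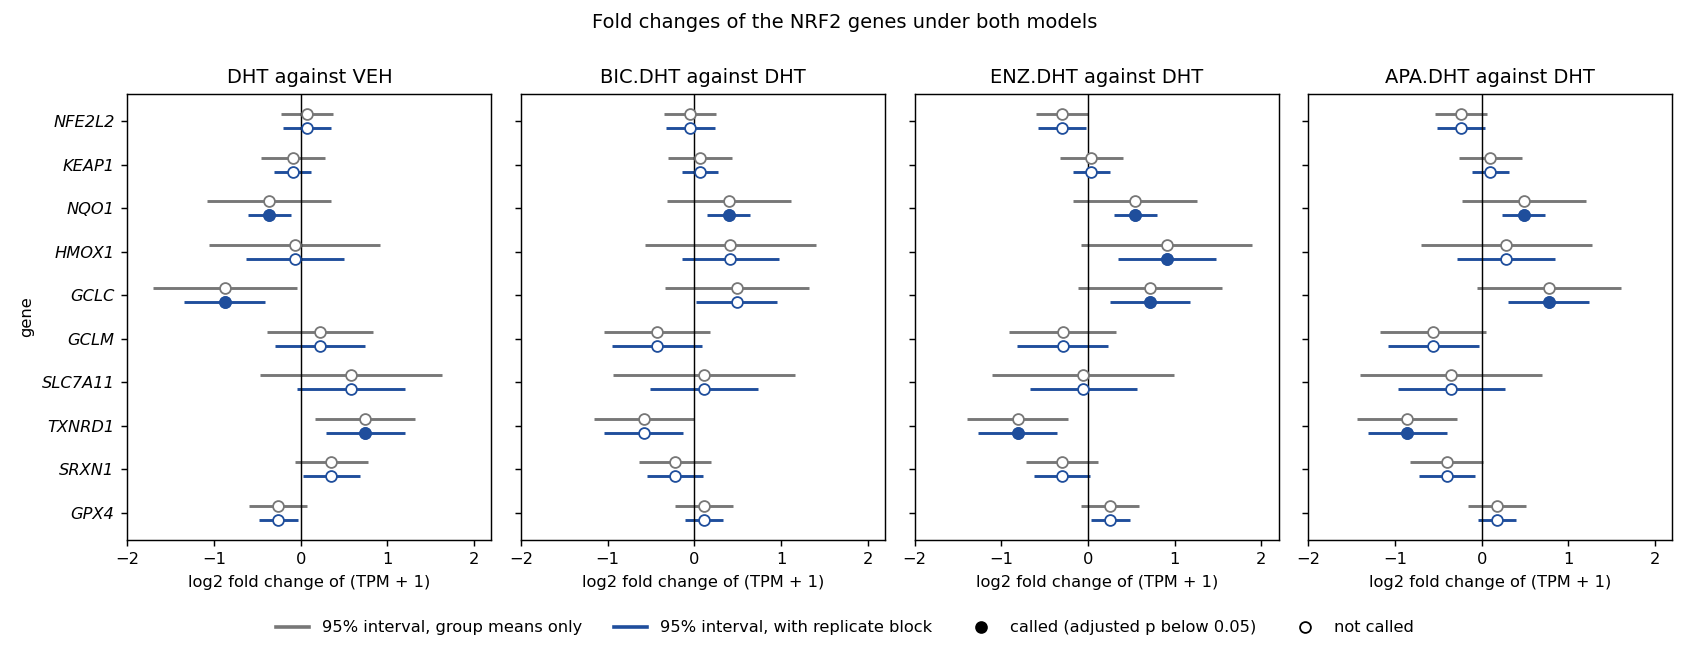
Log2 fold changes of TPM + 1 (horizontal axis) of the 10 genes in the 4 comparisons that involve DHT alone, with 95% intervals from the model of group means (grey) and from the model with the replicate block (blue). Filled points passed an adjusted p of 0.05: 0 of 10 without the block, and 3, 1, 4 and 3 with it.

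The antagonists alone, without DHT, gave no call among the members under either model. In BIC.VEH, ENZ.VEH and APA.VEH against VEH, 0 of 10 members were called, with 0, 1 and 0 at an unadjusted p below 0.05 and 1, 3 and 0 with the block. Over all genes 0%, 0% and 0.00601% were called, and 0.018%, 0% and 0.012% with the block, so these comparisons had few calls for any gene. The groups did not overlap for SLC7A11 in BIC.VEH, for HMOX1 in ENZ.VEH and for GCLM in APA.VEH, 1 member each (21.4%, 17.3% and 19.6% of all genes). The largest member difference was that of HMOX1 in ENZ.VEH, at 1.07 (SE 0.45, 95% interval 0.09 to 2.06, limma adjusted p 1). Over the 10 members the median log2 fold change of ENZ.VEH against VEH was 0.23 with 9 of 10 positive, and that of all genes was -0.00. This median rests on ENZ.VEH replicate 1, a library whose values are given with the replicates.

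With an antagonist present, adding DHT gave no call either. In the comparisons of DHT with solvent within BIC, within ENZ and within APA, 0 of 10 members were called under both models, and 0 had an unadjusted p below 0.05. The background was 0%, 0.00601% and 0.00601%, and 0%, 0.00601% and 0.024% with the block. TXNRD1 differed by -0.01 in BIC, with a 95% interval of -0.59 to 0.56, where it differed by 0.75 with DHT alone. The change in the DHT effect itself was tested as the interaction of each antagonist with DHT. For TXNRD1 this interaction was -0.76 with BIC, -1.05 with ENZ and -0.93 with APA (SE 0.37 each, limma adjusted p 0.54, 0.23 and 0.30). No member was called in the interactions by group means (0, 1 and 1 at an unadjusted p below 0.05), and the background was 0.986%, 1.63% and 1.42%. With the block, TXNRD1 was called for ENZ (SE 0.29, adjusted p 0.046) and missed the threshold for BIC (adjusted p 0.16) and APA (adjusted p 0.069), where 6.39%, 9.91% and 10.1% of all genes were called. With the block the ENZ call was kept without ENZ.DHT replicate 2 or ENZ.VEH replicate 2 and lost without any other of the 8 libraries (adjusted p 0.10 to 0.14). The value was -0.67 with the block without ENZ.VEH replicate 1 (adjusted p 0.13) and -1.42 without ENZ.VEH replicate 2 (adjusted p 0.0087). Without ENZ.VEH replicate 2 the TXNRD1 interaction was also called by group means, at -1.51 (adjusted p 0.047), and with the block GCLM, SLC7A11 and SRXN1 were called too, at -1.09, -1.41 and -0.80.

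The 3 antagonists were compared with each other at the same dose and time. Enzalutamide and apalutamide share a thiohydantoin core and differ in the groups on it (a dimethyl carbon in enzalutamide and a spiro-fused cyclobutane in apalutamide) and in an aromatic ring (benzene or pyridine), while bicalutamide is an anilide without that core. In these 6 pairs 0 of 10 members were called under either model. At an unadjusted p below 0.05 there was 1 member, HMOX1 in APA.VEH against ENZ.VEH, and with the block 0, 0 and 1 in the pairs with DHT and 1, 0 and 2 in the pairs without. Among the pairs with DHT (ENZ against BIC, APA against BIC, APA against ENZ) the background was 0.00601%, 0% and 0.00601%, and 0.012%, 0.0541% and 0.00601% with the block. Among the pairs without DHT in the same order it was 0%, 0.012% and 0.00601%, and 0.00601%, 0.0842% and 0.00601% with the block. HMOX1 had the largest difference in 4 of the 6 pairs, at -0.62 in APA.DHT against ENZ.DHT (95% interval -1.61 to 0.36), -0.9997 in APA.VEH against ENZ.VEH (95% interval -1.99 to -0.01, limma adjusted p 1), 0.49 in ENZ.DHT against BIC.DHT and 0.80 in ENZ.VEH against BIC.VEH. In the other pairs, APA against BIC, it was SLC7A11, at -0.46 with DHT (95% interval -1.51 to 0.59) and -0.51 without (95% interval -1.56 to 0.54). Groups did not overlap for 2, 5 and 2 members in the pairs with DHT (24.8%, 22% and 11.2% of all genes) and for 0, 0 and 1 in those without (25%, 23.4% and 24.1%). The 5 in APA.DHT against BIC.DHT were NFE2L2, SLC7A11, TXNRD1 and SRXN1, lower in APA.DHT, and GCLC, higher. TXNRD1 differed by -0.05 in APA.DHT against ENZ.DHT, with a 95% interval of -0.62 to 0.53. For NQO1 the same pair differed by -0.06 (95% interval -0.78 to 0.65), and for GCLC by 0.06 (95% interval -0.77 to 0.89). For TXNRD1, NQO1 and GCLC these intervals hold log2 differences of at least 0.53 in either direction, so enzalutamide and apalutamide with DHT cannot be said to act alike on them.

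More members were called for replicate number than for any treatment. The replicate term rests on all 16 libraries and a treatment comparison on 2 groups of 2, so these counts do not compare the sizes of the differences. As a term beside the 8 group means, replicate 2 against replicate 1 called 6 of 10 members, all lower in replicate 2, where 40.2% of all genes were called. NQO1 differed by -0.50 (SE 0.06, limma adjusted p 7.8e-05), GCLC by -0.52 (SE 0.11), HMOX1 by -0.61 (SE 0.13), SLC7A11 by -0.64 (SE 0.14), KEAP1 by -0.21 (SE 0.05) and GPX4 by -0.16 (SE 0.05). The GPX4 call was lost with no filter on low genes (adjusted p 0.075) and without either library of VEH, BIC.VEH, APA.VEH, ENZ.DHT or APA.DHT (adjusted p 0.066 to 0.075). Replicate 1 was the higher library in all 8 groups for NQO1, HMOX1 and GCLC, and in 7 of 8 for KEAP1, SLC7A11, SRXN1 and GPX4. NFE2L2 did not follow, at 0.00 (SE 0.06) and higher in replicate 1 in 3 of 8 groups. The median over the members was -0.25, beside 0.03 over all genes. With median-ratio scaling 9 of 10 members were lower in replicate 2. The dividing-cell markers ran the other way, with a median of 126 TPM in replicate 1 and 355 TPM in replicate 2, and the mitochondrial share had medians of 18.5% and 16.3%. Their part in the replicate difference was not tested.

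**Figure D3:**
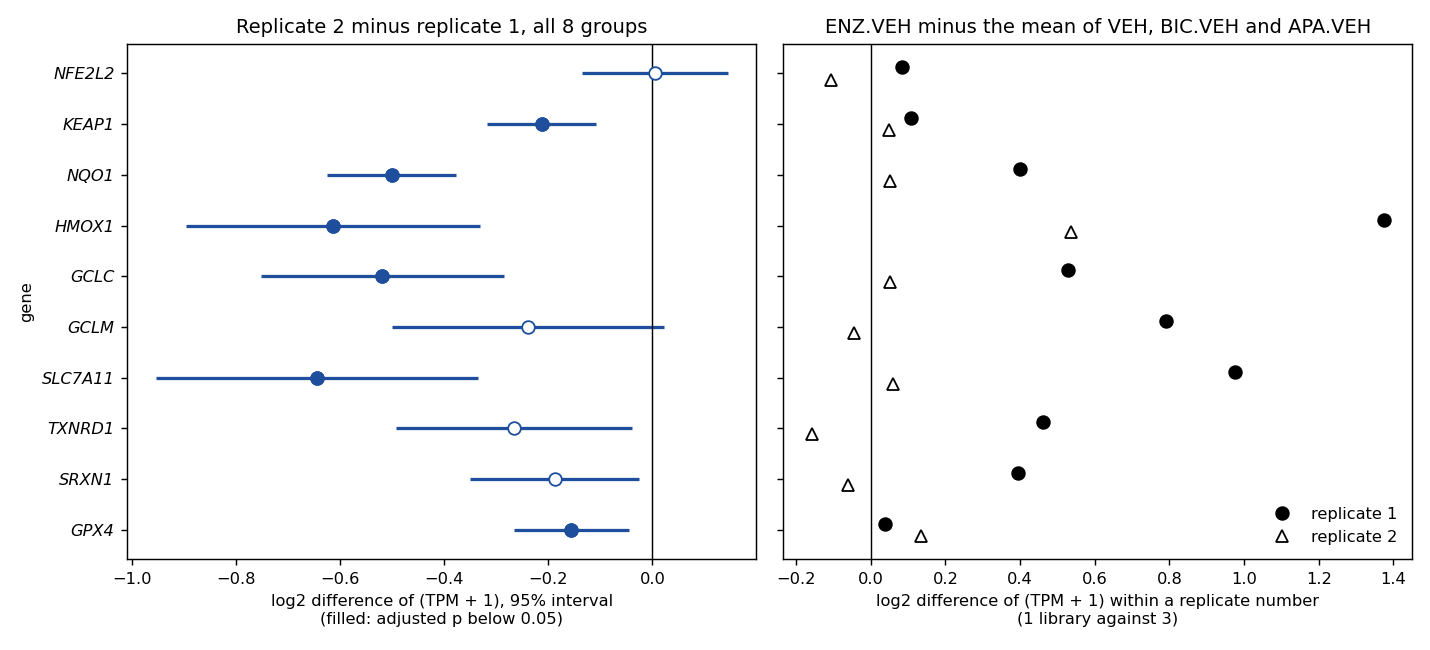
Left, log2 difference of TPM + 1 between replicates 2 and 1 over the 8 groups with 95% intervals, filled where the adjusted p was below 0.05 (6 of 10 genes, all lower in replicate 2). Right, the ENZ.VEH library of each replicate number minus the mean of the other 3 libraries without DHT of that number, where HMOX1 stands at 1.37 in replicate 1 and 0.54 in replicate 2.

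A single library stood apart for these genes. ENZ.VEH replicate 1 was the highest of all 16 libraries for 7 of 10 members (KEAP1, NQO1, HMOX1, GCLC, GCLM, SLC7A11 and SRXN1) and for 16.6% of all tested genes. It exceeded the next highest library 1.54-fold for GCLM, 1.46-fold for SLC7A11, 1.37-fold for GCLC, 1.35-fold for HMOX1 and 1.21-fold for NQO1, and by 1.00-fold to 1.12-fold for KEAP1 and SRXN1. Against the mean of the other replicate 1 libraries without DHT, it was higher by 0.98 for SLC7A11, 0.79 for GCLM, 0.53 for GCLC, 0.46 for TXNRD1 and 0.40 for NQO1 on the log2 scale. The replicate 2 library of ENZ.VEH showed 0.06, -0.04, 0.05, -0.16 and 0.05 for the same genes. For HMOX1 both ENZ.VEH libraries stood above all other libraries without DHT of their own number, by 1.37 and 0.54 over their mean. Without ENZ.VEH replicate 1, ENZ.VEH against VEH became -0.35 for GCLC, -0.18 for GCLM, -0.087 for NQO1 and 0.01 for SLC7A11, and HMOX1 came to 0.38. These values set ENZ.VEH replicate 2 against both VEH replicates and so carry the replicate difference. Within replicate 2 the differences were -0.04 for GCLC, -0.15 for GCLM, 0.11 for NQO1, 0.25 for SLC7A11 and 0.52 for HMOX1. The same library had the lowest dividing-cell marker sum, 77.3 TPM, and a mitochondrial share of 17.7%, and their part in its NRF2 gene levels was not tested.

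The wider pathway was described by a list of 97 other genes of NRF2 biology, of which 86 were tested. Under DHT, 16 of the 86 were called, 11 higher and 5 lower (with median-ratio scaling 15 and 5), and 39 with the block, beside the background of 10.3% and 27.4%. Their median log2 fold change was 0.06, and that of all genes -0.10. In BIC.DHT against DHT 5 were called, 2 higher and 3 lower (2 and 6 with median-ratio scaling), and 25 with the block. In ENZ.DHT 15 were called, 7 higher and 8 lower, and in APA.DHT 15, 6 higher and 9 lower, with 42 each with the block. The medians of these 3 comparisons were -0.05, -0.09 and -0.12, beside 0.00, -0.01 and 0.00 for all genes. As in the members, no list gene was called with an antagonist alone (0 of 86 in each, with 1, 0 and 0 at an unadjusted p below 0.05, and 0 called with the block). Calls against DHT alone included AKR1C1, higher in ENZ.DHT (2.34, SE 0.63, limma adjusted p 0.039). In ENZ.DHT and APA.DHT, GSTA1 (1.38 and 1.48) and GSTM3 (0.64 and 0.68) were higher. UGDH (-0.95 and -0.91) and FECH (-1.06 and -1.11) were lower there. The GSTA1 calls were lost whichever library was left out. Those of AKR1C1, GSTM3 and UGDH were lost without either DHT library or without replicate 1 of the antagonist group. Those of FECH were lost without DHT replicate 2, and in ENZ.DHT also without ENZ.DHT replicate 1. With no filter, AKR1C1, GSTA1 in both comparisons and GSTM3 in ENZ.DHT were not called (limma adjusted p 0.056 to 0.099).

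ABCC4 and PRDX6 rose with DHT and fell when an antagonist was added. ABCC4, an exporter of conjugates and cyclic nucleotides, stood at 35.4 and 32.7 TPM in VEH and at 100.4 and 114 TPM with DHT, and between 24.6 and 41.7 TPM in all 12 libraries with an antagonist. Its log2 fold change was 1.62 with DHT (SE 0.16, limma adjusted p 0.00016) and -1.39, -1.89 and -1.77 in BIC.DHT, ENZ.DHT and APA.DHT against DHT. PRDX6, a peroxiredoxin that reduces phospholipid peroxides, stood at 495 and 454 TPM in VEH and at 1403 and 1199 TPM with DHT, and rose by 1.45 (SE 0.15, limma adjusted p 0.00018). With an antagonist and DHT, PRDX6 lay between 480.0 and 669 TPM. All of these calls held whichever library was left out, except that of PRDX6 in BIC.DHT, which was lost without BIC.DHT replicate 2 (adjusted p 0.056). Fitted on the 4 libraries of a comparison alone, ABCC4 was called in DHT against VEH (adjusted p 0.039), while PRDX6 there and both genes in the antagonist comparisons were not (adjusted p 0.052 to 0.15). Of the 41 calls of named list genes over the 4 comparisons, 37 were lost in that smaller fit, and AKR1C3, ABCC4, GLRX2 and TXNIP in DHT against VEH were kept. GLRX2, the mitochondrial glutaredoxin, went from 14.7 and 14.9 TPM in VEH to 40.3 and 40.4 TPM with DHT, and rose by 1.39 on the log2 scale (limma adjusted p 0.0049, SE 0.25).

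Other list genes fell with DHT. AKR1C3, a ketosteroid reductase that can make androgens, stood at 8.32 and 8.13 TPM in VEH and at 1.58 and 1.24 TPM with DHT, and fell by a log2 value of -1.94 (limma adjusted p 0.0082, SE 0.38). It was higher than with DHT by 2.06 in ENZ.DHT and 1.92 in APA.DHT (adjusted p 0.0072 and 0.010). The AKR1C3 calls were lost without DHT replicate 2 and without replicate 1 of VEH, ENZ.DHT or APA.DHT in their comparisons (adjusted p up to 0.081), and AKR1C genes are near-identical copies among which reads may be shared. TXNIP, the inhibitor of thioredoxin, went from 184 and 184 TPM to 89.5 and 86.8 TPM (log2 fold change -1.05, SE 0.17, limma adjusted p 0.0032), and FTL, the ferritin light chain, from 801 and 787 TPM to 533 and 519 TPM (log2 fold change -0.59, SE 0.12, limma adjusted p 0.010). FTL was called in the other direction in BIC.DHT, ENZ.DHT and APA.DHT, and its DHT call was lost without DHT replicate 2 or either VEH replicate (adjusted p up to 0.077) and its BIC.DHT call whichever library was left out (adjusted p up to 0.28).

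By function, the calls under DHT are given for each of the 8 groups of the list, against 10.3% of all genes called, or 27.4% with the block. Of 19 glutathione metabolism genes tested, 4 rose (GGCT, GPX8, GSR and MGST3) and none fell. GSR, glutathione reductase, stood at 75.9 and 80.2 TPM in VEH and at 124 and 146 TPM with DHT (log2 fold change 0.78, SE 0.16, limma adjusted p 0.011). In ENZ.DHT and APA.DHT GSR was lower than with DHT, by -0.92 and -0.88 (adjusted p 0.0054 and 0.0070). The GSR calls were lost without DHT replicate 2 and without 1 or 2 other libraries (adjusted p up to 0.10). Of 12 heme and iron genes, ABCB6 and FECH rose and FTL fell, of 14 carbonyl and quinone genes PTGR1 rose and AKR1C3 fell, and of 4 exporters ABCC4 rose and ABCG2 fell. The calls of GGCT, GPX8, PTGR1, ABCB6 and FECH with DHT were lost whichever library was left out (adjusted p up to 0.27). ABCG2 was low, with VEH libraries at 1.51 and 1.43 TPM and DHT libraries at 0.23 and 0.13 TPM. Of 13 thioredoxin and peroxiredoxin genes, GLRX2 and PRDX6 rose and TXNIP fell, and with the block 3 rose (PRDX4 too) and 5 fell (TXNIP, PRDX1, PRDX2, PRDX3 and PRDX5). Of 3 genes that remove superoxide and peroxide, CAT, catalase, fell, from 144 and 136 TPM to 90.8 and 98.95 TPM. The CAT and PGD calls were lost whichever library was left out (adjusted p up to 0.13) and that of MGST3 without replicate 1 of DHT or VEH (adjusted p up to 0.13). Of 8 genes of NADPH supply, 1 rose, PGD, and 6 with the block (IDH1, ME1, MTHFD2, PGD, TALDO1 and TKT, 0 lower). In APA.DHT against DHT, where 8.36% of all genes were called, 3 of these 8 fell (IDH1, PGD and TKT). IDH1 fell in ENZ.DHT against DHT too (log2 fold change -0.69, SE 0.18, limma adjusted p 0.037), a call lost whichever library was left out. With the block 6 fell in both ENZ.DHT and APA.DHT, beside 29.2% and 27.3% of all genes called in either direction. The IDH1 and PGD calls in APA.DHT were lost whichever library was left out (adjusted p up to 0.20 and 0.14), and that of TKT was kept only without APA.DHT replicate 2 (adjusted p otherwise up to 0.24) and lost with no filter (adjusted p 0.075). Of 13 NRF2 partner and turnover genes none was called with DHT, and 1 fell with the block, CUL3, the ligase scaffold that works with KEAP1. GSTP1, a glutathione transferase, was at or below 0.16 TPM in all 16 libraries.

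**Figure D4:**
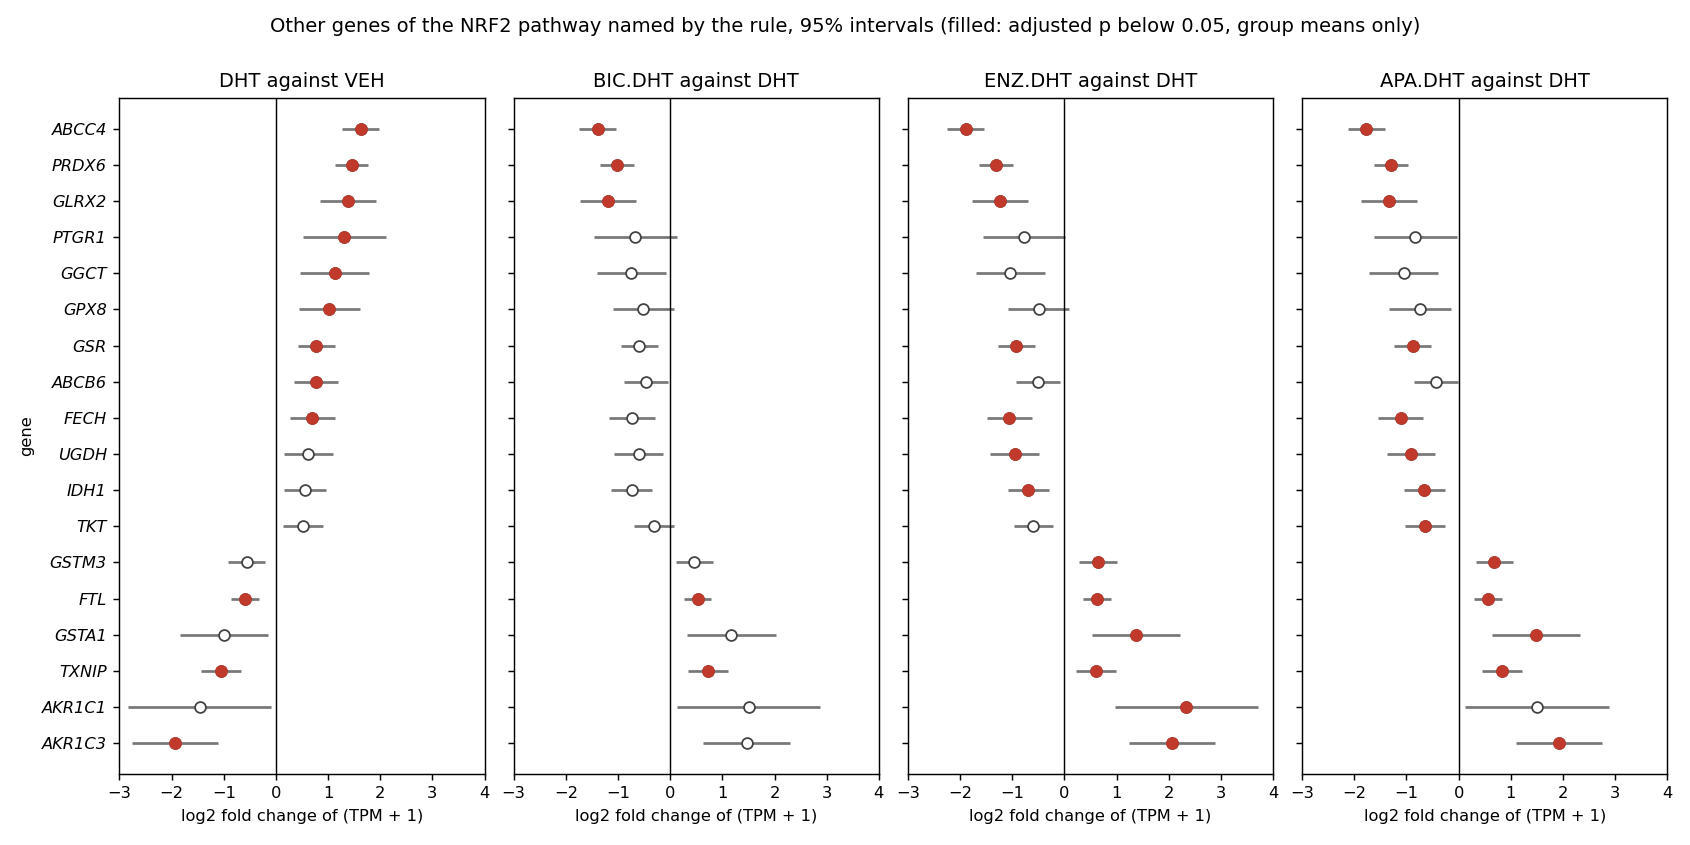
Log2 fold changes of TPM + 1 (horizontal axis) with 95% intervals for 18 other genes of the pathway, ordered by their value in DHT against VEH, in the 4 comparisons that involve DHT alone. Filled points passed an adjusted p of 0.05 in the model of group means, and the comparisons share the DHT libraries.

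ENZ.VEH replicate 1 was also the highest library for 25 of the 86 list genes, beside 16.6% of all tested genes. Among them were SQSTM1, which binds KEAP1, at 819.8 TPM and 1.43-fold above the next library, FTH1, the ferritin heavy chain, at 7493 TPM and 1.39-fold above it, and TRIM16 at 59.2 TPM and 1.34-fold above it. Replicate 2 against replicate 1 called 52 of the 86 list genes, 37 of them lower, beside 40.2% of all genes.

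The genes whose pattern over the 8 group means was most like that of a member were found by Pearson's r of log2(TPM + 1), over 8 points that share libraries and thus as a description. For KEAP1 they were AC092944.1 (r 0.977), NXPE1 (0.966) and AC005828.4 (0.955), and for GPX4 PLA2G6 (0.987), ITGB4 (0.987) and AC006008.1 (0.985). For NQO1 they were MIR762HG (r 0.989), FTH1 (0.985) and AC106782.6 (0.981). For GCLC they were SPG11 (0.997), SDSL (0.997) and PLPP4 (0.993), and for SLC7A11 ALDH3A2 (0.962), SEL1L3 (0.960) and C15orf41 (0.924). HMOX1 was most like AL691420.1 (0.970), NLRC5 (0.969) and SARS1 (0.964). For TXNRD1, added after its values were seen, they were WARS1 (0.992), DNAJC10 (0.990) and BMPR1B (0.989). None of these 21 genes was a member. FTH1 and ALDH3A2 are on the list of other pathway genes. Both were highest in ENZ.VEH replicate 1 (7493 and 303 TPM), as were NQO1 and SLC7A11. Some of the genes alike were low in all 16 libraries. AC092944.1 ran from 0.55 to 1.5 TPM, NXPE1 from 0.04 to 1.11 TPM and AC005828.4 from 0.83 to 3.46 TPM. AC106782.6 ran from 0.0 to 1.29 TPM, and AL691420.1 from 0.44 to 1.61 TPM.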

How the data were processed

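Polyadenylated RNA was made into stranded libraries and read as 125 bp pairs. Per the submitters' processing notes and the study's methods, the authors used FastQC 0.11.9, Trim Galore 0.6.5, STAR 2.7.2b on GRCh38 and RSEM 1.3.3. The values they deposited are TPM per gene symbol, 1 column per library. RSEM divides reads that fit several genes by a model, so the levels of close copies (AKR1C genes, ferritins and their pseudogenes) are uncertain. Whether the counting used strand is not given in the sources used here, so reads of overlapping antisense genes cannot be told apart from those of NQO1, GCLC, SLC7A11 and TXNRD1. The table holds 0 columns of other samples. TPM keeps no depth, so no counting interval is given.

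Values were transformed as log2(TPM + 1), which understates the change of low genes. The 16636 genes at 1 TPM or more in 2 or more libraries were fitted with limma 3.58.1 (trend) in R 4.3.3, as 8 group means over 16 libraries, with Benjamini-Hochberg adjustment over all genes within a comparison. The other model adds replicate number as a block. Same-numbered libraries deviated together in all 28 pairs of groups (r of deviations from the group means 0.204 to 0.635), so the numbers were taken to pair the samples. Nothing in the labels says what the pair shares. With 2 replicates, p-values measure the spread between these cultures of 1 line.

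The 10 members and the lists were chosen with earlier results of these data known. All members are named. Other pathway genes are named where called in DHT against VEH or an antagonist with DHT against DHT with a mean of at least 5 TPM in either group, up to 12 a comparison, and genes alike are the 3 with the highest r. Genes given by function (MGST3, PGD, ABCG2, CAT, CUL3, GSTP1 and those called only with the block) were chosen after their values were seen, as was TXNRD1 for genes alike. Alternatives were the block, pseudocount 0.1, no filter, a filter at 5 TPM, median-ratio scaling, nuclear genes only and only the groups compared. Each library was also left out in turn, for treatments only of comparisons that hold its group. The block with each library left out, and the same for the replicate term, were added after seeing the data. Positions, overlaps and promoter windows are from RefSeq (GRCh38.p14).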

Additional observations from a re-analysis of the deposited data

Results flagged for a closer look

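The interaction of antagonist and DHT, which tests whether an antagonist changed the DHT effect, was called for ABCC4 and PRDX6. For ABCC4 the DHT effect was changed on the log2 scale by -1.64 under BIC, -1.96 under ENZ and -1.86 under APA (SE 0.23 each, limma adjusted p 0.0066, 0.0019 and 0.0027). For PRDX6 the values were -1.28, -1.35 and -1.31 in that order (SE 0.21 each, limma adjusted p 0.017, 0.0085 and 0.012). The 3 interactions share the VEH and DHT libraries. Among the 10 members, the interaction of ENZ with DHT was called for TXNRD1 with the replicate block, at -1.05 (SE 0.29, limma adjusted p 0.046). That call was lost without any of 6 of the 8 libraries (adjusted p 0.10 to 0.14). By group means it was not called (adjusted p 0.23).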

How the results depend on the processing

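Read depth is unknown from TPM, so the spread between the 2 libraries of a group is the only measure of error. The models of all 16 libraries pool that spread over the 8 groups. The replicate block changed the count of called members from 0 to 3 in DHT against VEH, to 1 in BIC.DHT, 4 in ENZ.DHT and 3 in APA.DHT against DHT, and to 1 in the ENZ interaction. The block changed no other count of members. The alternatives other than the block kept the count at 0 in every treatment comparison, apart from the ENZ interaction, which had 0 to 1 without 1 library. In the 4 comparisons that involve DHT alone, only the fit of the groups compared was without ENZ.VEH replicate 1. With the block and 1 library left out, chosen after seeing the data, the counts were 0 in BIC.DHT and ran from 0 to 2 in DHT against VEH (1 without VEH replicate 2, 2 without DHT replicate 2), from 1 to 3 in ENZ.DHT, from 0 to 3 in APA.DHT and from 0 to 4 in the ENZ interaction (4 without ENZ.VEH replicate 2). Leaving out ENZ.VEH replicate 1 or, for GCLC, VEH replicate 2 reversed ENZ.VEH against VEH, uncalled throughout, for 3 members. Over the left-out libraries GCLM ran from -0.18 to 0.86 (with the block -0.11 to 0.79), NQO1 from -0.087 to 0.77 (with the block 0.14 to 0.55, not reversed), and GCLC from -0.35 to 0.80 (with the block -0.13 to 0.58, and without VEH replicate 2 -0.089). Of 1004 alternatives for single genes, 801 kept direction and call, 168 lost a call, 29 gained one and 6 reversed. The smaller fit on a comparison's own libraries kept 4 of 41 calls of named pathway genes, and testing without a filter kept all but 14. The causes were not tested.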
